A study of Mus musculus with 2 samples.

Results

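The miR-17-92 cluster is a set of 6 microRNA (miRNA) genes, Mir17, Mir18, Mir19a, Mir20a, Mir19b-1 and Mir92-1, that lie on 1 primary transcript on mouse chromosome 14. They were chosen by their GENCODE symbols, and all 6 were found among the 1973 miRNA genes of each deposited count table. Adrenals were taken from B6NCrl pups at postnatal day 0, and the labels name no treatment or altered allele. The 2 libraries, pup 2 and pup 1, form a single group, each holding the 2 adrenals of an animal, from 1 pregnancy. Both carry one donor identifier in the labels although the pups are numbered apart, so the SDs below measure the spread between these 2 libraries, which may be technical. Sex was not collected. The libraries held RNA shorter than 30 nucleotides.

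A miRNA is cut from a hairpin in a longer transcript, first in the nucleus by Drosha and then in the cytoplasm by Dicer, and the arm that is loaded into Argonaute represses transcripts that pair with its seed, bases 2 to 8 of the mature miRNA. The miR-17-92 cluster is the classical example of several hairpins cut from a single transcript. It is transcribed under Myc and E2F factors, is abundant in proliferating and embryonic cells, and is needed for survival of newborn mice, with roles in lung, heart and B cell development. Its miRNAs repress, among others, the cell cycle inhibitor Cdkn1a and the pro-apoptotic gene Bcl2l11.

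On mm10, GENCODE places all 6 hairpins within exon 2 (chr14:115043271-115046727, plus strand) of the long noncoding host gene Mir17hg (chr14:115042879-115046727). The hairpins span 836 bases, from the start of Mir17 at chr14:115043671-115043754 (ENSMUSG00000065508.1) to the end of Mir92-1 at chr14:115044427-115044506 (ENSMUSG00000076062.1). Between them lie Mir18 (ENSMUSG00000065403.1, chr14:115043851-115043946), Mir19a (ENSMUSG00000065416.1, chr14:115044000-115044081), Mir20a (ENSMUSG00000065442.1, chr14:115044157-115044263) and Mir19b-1 (ENSMUSG00000076256.1, chr14:115044305-115044391). Neighbouring hairpins are separated by 35 to 96 bases. The host transcript itself is not a row of the count tables.

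The mature arms by which the genes are usually known are shown first because their sequences set both the targets and the way reads can be assigned. They were taken from RefSeq (GRCm38.p6), where all 6 genes were matched by symbol, and the seed is in capitals.
miR-17-5p of Mir17: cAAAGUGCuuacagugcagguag
miR-20a-5p of Mir20a: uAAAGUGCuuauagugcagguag
miR-18a-5p of Mir18: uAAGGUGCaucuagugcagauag
miR-19a-3p of Mir19a: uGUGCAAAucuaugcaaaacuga
miR-19b-3p of Mir19b-1: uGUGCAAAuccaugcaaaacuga
miR-92a-3p of Mir92-1: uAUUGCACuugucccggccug
The 6 genes carry 4 seeds. Mir17 and Mir20a share AAAGUGC, Mir19a and Mir19b-1 share GUGCAAA, Mir18 has AAGGUGC, and Mir92-1 has AUUGCAC. Counted from the 5′ end, miR-20a-5p differs from miR-17-5p by C1U and C12U. In the same way miR-19b-3p differs from miR-19a-3p by U11C.

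The opposite arms of Mir19b-1 and Mir92-1 are shown because each was found in its own hairpin only, unlike the 3′ arms of the same genes.
miR-19b-1-5p: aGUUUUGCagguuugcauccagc
miR-92a-1-5p: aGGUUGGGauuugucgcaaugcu
Among the RefSeq mouse hairpins, the sequence of miR-19b-3p was found in Mir19b-1 and in Mir19b-2 on chromosome X, and miR-92a-3p in Mir92-1 and in Mir92-2 on chromosome X. The hairpins of Mir19b-1 and Mir19b-2 share an unbroken run of 25 bases around the 23 bases of miR-19b-3p. Those of Mir92-1 and Mir92-2 share 22 bases around the 21 bases of miR-92a-3p. The listed arms of Mir17, Mir18, Mir19a and Mir20a were each found in 1 hairpin. The hairpin of Mir18 nevertheless shares an unbroken run of 17 bases, overlapping miR-18a-5p, with that of Mir18b. A search of 141767 GENCODE transcripts on both strands gave the same genes and, besides them, only the host Mir17hg. The deposited tables keep reads that map to several places apart from the gene rows. The counts of Mir19b-1 and Mir92-1 therefore leave out any multi-mapped reads of the shared arms. No other annotated hairpin holds miR-19a-3p, but no genome sequence was searched for further copies of any arm. The counts do not separate the 2 arms of a hairpin.

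Depth and context were as follows. The gene rows held 3327743 same-strand counts in pup 2 and 1131762 in pup 1, and levels are given as counts per 1000000 of these (CPM). Multi-mapped reads were 32.2% of all reads in pup 2 and 34.9% in pup 1. No miRNA was taken as a defining marker of the adrenal cortex. The 4 genes listed as neuroendocrine, Mir375 and the miR-7 genes, had a sum of 33410.0 CPM for pup 2 and 39764.5 CPM for pup 1. Markers of other cells were also present, with the hepatocyte miRNA Mir122 at 4081 CPM in pup 2 and 2979 CPM in pup 1, and the 3 erythroid genes at 337 CPM for pup 2 and 339 CPM for pup 1. The 3 measured leukocyte genes, of 5 listed, summed to 1023 CPM for pup 2 and 866 CPM for pup 1. In whole glands, fewer cells of a type and less RNA per cell cannot be told apart.

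Levels of the 6 genes fell into an upper set of 4 and a lower pair. Mir17, first on the transcript, had 3638 CPM in pup 2 and 3322 CPM in pup 1, from 12106 and 3760 counts. It averaged 3480 ± 223 CPM (SD, n = 2) and ranked 45 of 1973 genes by mean level. Mir92-1, last on the transcript and known from work on blood vessel growth, had 1002 CPM in pup 2 and 1026 CPM in pup 1. Its mean was 1014 ± 17.2 CPM (SD, n = 2). Mir20a, with the seed of Mir17, had 1075 CPM in pup 2 and 829 CPM in pup 1, a mean of 952 ± 174 CPM (SD, n = 2). Mir18 had 752 CPM in pup 2 and 601 CPM in pup 1, a mean of 676 ± 107 CPM (SD, n = 2).

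The miR-19 genes formed the lower pair. Mir19a had 38 counts in pup 2 and 13 in pup 1, giving 11.4 CPM (exact Poisson 95% interval 8.08 to 15.7) in pup 2 and 11.5 CPM (6.12 to 19.6) in pup 1. Its mean was 11.5 ± 0.0476 CPM (SD, n = 2). Mir19b-1 had 15 counts in pup 2 and 7 in pup 1, which is 4.51 CPM (2.52 to 7.43) in pup 2 and 6.19 CPM (2.49 to 12.7) in pup 1. Its mean of 5.35 ± 1.19 CPM (SD, n = 2) was below the 10 CPM used as the level filter, which the other 5 members passed. The intervals of the miR-19 genes were apart in pup 2, with Mir19a higher, and overlapped in pup 1, where their order was not resolved at this depth. These intervals cover counting error only and take each count as an independent draw. PCR copies of a molecule are no independent draws, and where counts include them the intervals are too narrow.

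In order of level, Mir17 stood above the next gene in both pups by more than the spread between pups. Mir92-1 and Mir20a changed places, with Mir20a higher in pup 2 and Mir92-1 higher in pup 1, and their means differed by less than the SD of Mir20a. Mir18 was below Mir20a in each pup, while the range of Mir20a over the pups, 829 to 1075 CPM, did not overlap that of Mir18, 601 to 752 CPM. Both miR-19 genes were below all 4 others in both pups. These levels leave out multi-mapped reads, among them any of the arms that Mir92-1 and Mir19b-1 share with other hairpins. This order is thus one of counts placed on a single locus. For comparison, the 284 genes that averaged at least 10 CPM had a median level of 275 CPM.

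**Figure D1:**
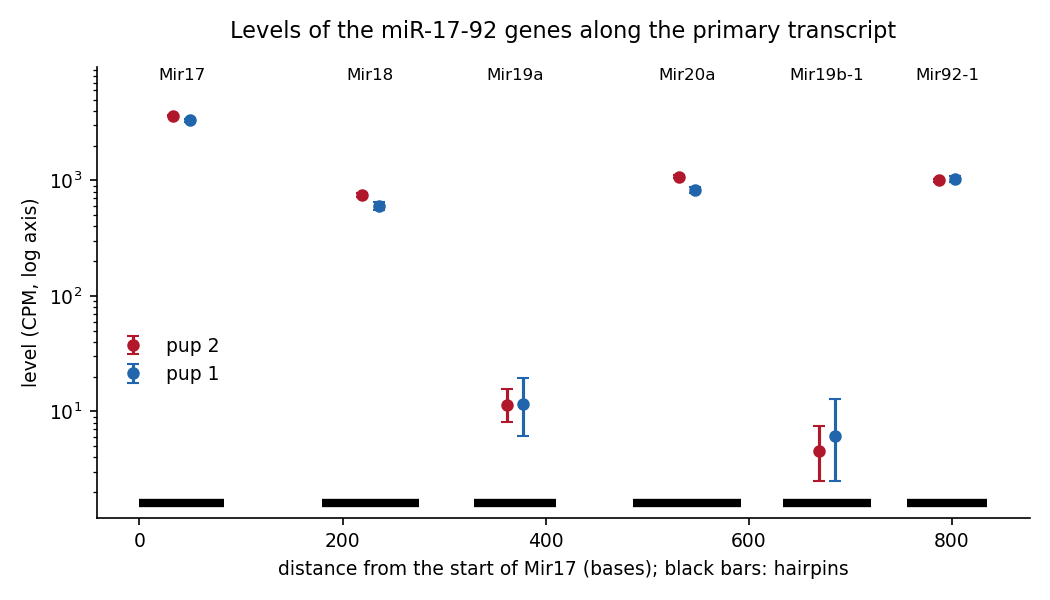
Levels of the 6 genes in pup 2 (red) and pup 1 (blue) as CPM on a log axis, placed by the distance of each hairpin from the start of Mir17, with exact Poisson 95% intervals. Mir17, Mir18, Mir20a and Mir92-1 lie between 601 and 3638 CPM, and Mir19a and Mir19b-1 between 4.51 and 11.5 CPM, with a gene of the upper set on each side.

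The level did not run in one direction along the transcript. Mir18 was 0.207 of Mir17 in pup 2 (exact conditional 95% interval 0.198 to 0.216) and 0.181 in pup 1 (0.166 to 0.196). The next gene, Mir19a, was 53 bases further on and 65.8-fold lower than Mir18 in pup 2 and 52.3-fold lower in pup 1. Mir20a, 75 bases after Mir19a, was 94.2-fold higher than Mir19a in pup 2 (68.5 to 133) and 72.2-fold higher in pup 1 (42.0 to 136). The same alternation followed at the distal end. Mir19b-1 was 239-fold lower than Mir20a in pup 2 and 134.0-fold lower in pup 1, and Mir92-1, 35 bases beyond Mir19b-1, was 222-fold higher than it in pup 2 (135 to 397) and 166-fold higher in pup 1 (80.2 to 413).

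The spread from the highest to the lowest member, a ratio within a library that needs no scaling between libraries, was 807-fold in pup 2 (489 to 1442) and 537-fold in pup 1 (260 to 1337), both between Mir17 and Mir19b-1. On the log2 scale this was 9.66 in pup 2 and 9.07 in pup 1. Between Mir17 and Mir19a, whose listed arms were each found in a single hairpin, it was 319-fold in pup 2 (232 to 450) and 289-fold in pup 1 (169 to 544). Among the 4 upper genes the highest stood 4.84-fold over the lowest in pup 2 and 5.53-fold in pup 1. Most of the spread in counts thus lay between the miR-19 genes and the others. How evenly library preparation captured the different miRNAs was not tested, so these folds are of counts and not of miRNA amounts. Multi-mapped reads are left out for every gene. Annotated copies of an arm were found for Mir19b-1 and Mir92-1, which stood at opposite ends of this division. No genome sequence was searched for copies of the other arms. The part of multi-mapped reads in the levels was not tested.

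Hairpins at either end of the range are shown for their context, with the mature arms that RefSeq lists in capitals.
Mir17: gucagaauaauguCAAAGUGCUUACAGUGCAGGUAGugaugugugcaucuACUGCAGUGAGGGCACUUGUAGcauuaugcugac
Mir19a: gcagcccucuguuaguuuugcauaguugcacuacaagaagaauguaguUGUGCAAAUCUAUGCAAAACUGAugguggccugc
Mir19b-1: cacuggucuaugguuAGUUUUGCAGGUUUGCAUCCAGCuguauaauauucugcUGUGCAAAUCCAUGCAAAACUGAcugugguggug
RefSeq lists both arms for Mir17 and Mir19b-1 and only the 3′ arm for Mir19a. By RNAfold, the hairpins had 84 bases and a minimum free energy of -36.7 kcal/mol for Mir17, 82 bases and -38.7 kcal/mol for Mir19a, and 87 bases and -37.8 kcal/mol for Mir19b-1. The values of the others were -29.2 kcal/mol for Mir18, -38.6 kcal/mol for Mir20a and -34.0 kcal/mol for Mir92-1. GC content of the hairpins was 43.7% for Mir19b-1, 43.8% for Mir18 and 43.9% for Mir19a, and ran up to 47.5% for Mir92-1. Of the arms shown first, miR-19a-3p had the lowest GC content, 34.8%, miR-19b-3p and miR-20a-5p both had 39.1%, and miR-92a-3p had the highest, 57.1%. The part of folding or GC content in the levels was not tested.

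The 6 genes together took 0.648% of miRNA gene counts in pup 2 (exact Clopper-Pearson 95% interval 0.640 to 0.657) and 0.580% in pup 1 (0.566 to 0.594). They summed to 6483 CPM for pup 2 and 5795 CPM for pup 1, a mean of 6139 ± 486 CPM (SD, n = 2). Mir17 gave more of it than all other members together, with 56.1% (55.5 to 56.8) in pup 2 and 57.3% (56.1 to 58.5) in pup 1. Multi-mapped reads, among them any of the shared arms of Mir92-1 and Mir19b-1, are left out of the sum. The shares thus hold for counts placed on a single locus. Mir20a gave 16.6% (16.1 to 17.1) in pup 2 and 14.3% (13.5 to 15.2) in pup 1. Mir92-1 gave 15.4% (14.97 to 15.9) in pup 2 and 17.7% (16.8 to 18.6) in pup 1. Mir18 gave 11.6% (11.2 to 12.0) in pup 2 and 10.4% (9.64 to 11.1) in pup 1. The intervals of the pups overlapped for Mir17 and did not overlap for Mir20a, Mir92-1 and Mir18. Mir19a gave 0.176% in pup 2 and 0.198% in pup 1, and Mir19b-1 gave 0.0695% in pup 2 and 0.107% in pup 1.

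**Figure D2:**
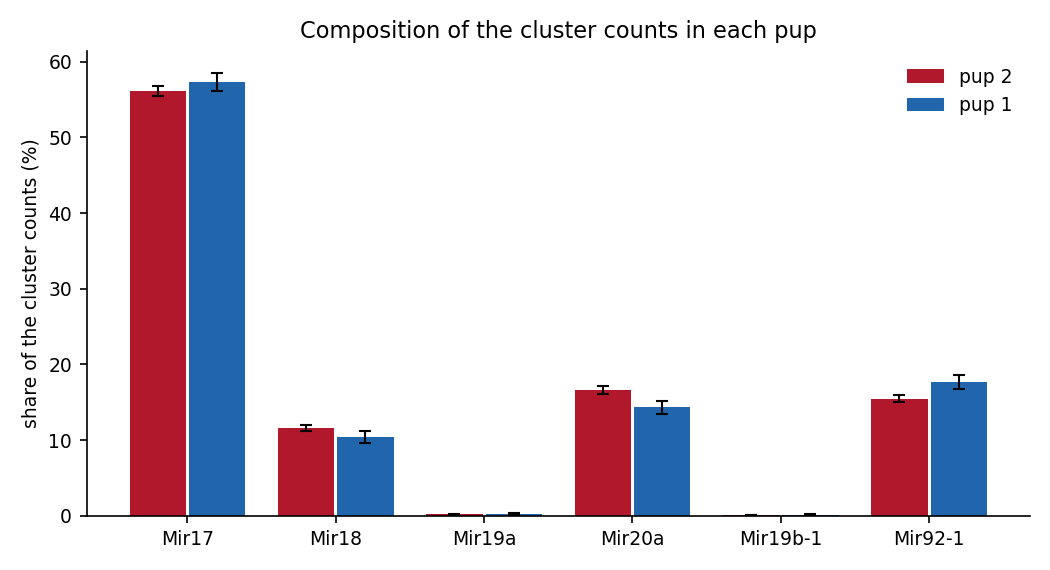
Share of the summed cluster counts that each gene took, in pup 2 (red) and pup 1 (blue), with exact Clopper-Pearson 95% intervals that cover counting error only. Multi-mapped reads are left out. Mir17 took 56.1% in pup 2 and 57.3% in pup 1, and the bars of Mir19a and Mir19b-1 are too low to be seen.

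The 2 libraries were compared gene by gene, with the ratio of pup 2 over pup 1. With 1 library per pup there is no test, and 2-fold was the threshold for a difference. Of the 5 members that averaged at least 10 CPM, 0 were 2-fold apart, against a background of 5.28%, or 15 of all 284 such genes. Among the 635 genes with any count, 13.4% were. Mir20a was 1.298-fold (exact conditional 95% interval 1.21 to 1.40) and Mir18 was 1.25-fold (1.15 to 1.36) the level of pup 1. Mir17 was 1.10-fold (1.06 to 1.14), Mir92-1 was 0.976-fold (0.913 to 1.04) and Mir19a 0.994-fold (0.518 to 2.03). Mir19b-1, below the level filter, was 0.729-fold with an interval from 0.280 to 2.11.

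Over the 6 members the median log2 ratio was 0.06, with 3 positive and 3 negative, and over the 284 genes it was 0.08. TMM scaling, which moved the median of all genes by 0.10, gave 5 positive ratios and 1 negative, with Mir92-1 at 0.07 and Mir19a at 0.09, so the direction of these genes rests on the scaling. The cluster sum was 1.12-fold the level of pup 1 (1.09 to 1.15). Summed markers of other cells had ratios of 1.18 for leukocytes, 0.994 for erythroid cells, 1.25 for both endothelium (Mir126a) and the stromal list, 1.37 for liver, 0.840 for neuroendocrine cells, 2.79 for epithelium and 5.00 for striated muscle, where 3 of 4 measured genes were at 0. The pancreas list summed to at most 2.10 CPM. The part of these cells in the ratio of the cluster was not tested.

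**Figure D3:**
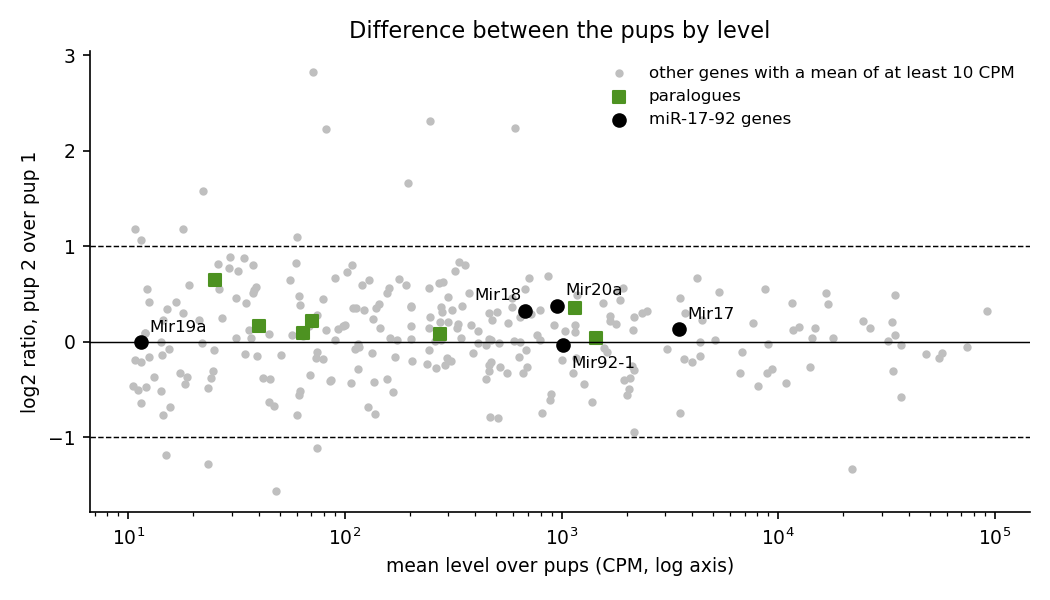
Log2 ratio of pup 2 over pup 1 against the mean level on a log axis, for the 284 genes that averaged at least 10 CPM, with dashed lines at 2-fold. The 5 miR-17-92 genes shown (black) run from -0.03 for Mir92-1 to 0.38 for Mir20a, inside the lines, as do the 7 paralogues above the filter (green squares).

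All 6 members had 0 counts on the opposite strand in both pups, and a floor of 3 counts puts the limit at 0.902 CPM for pup 2 and 2.65 CPM for pup 1. Over all genes that column held 104740 counts in pup 2 and 39345 in pup 1. The counts of the cluster thus lay on the annotated strand of the host transcript as far as this depth shows.

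The mouse genome has further genes with the seeds of the cluster, most of them in its paralogues, the miR-106b-25 cluster on chromosome 5 (Mir106b, Mir93 and Mir25) and the miR-106a-363 cluster on chromosome X (Mir106a, Mir18b, Mir20b, Mir19b-2, Mir92-2 and Mir363). The sum of miR-17-92 was 2.13-fold that of miR-106b-25, at 2878 ± 239 CPM (SD, n = 2), and 30.1-fold that of miR-106a-363, at 204 ± 23.7 CPM (SD, n = 2). Of the 3 clusters together, miR-17-92 gave 66.6% of the level, with multi-mapped reads left out of each sum. The 5′ arms of the 3 paralogues with the seed and the length of miR-17-5p are shown to mark how few bases can separate them.
miR-106a-5p of Mir106a: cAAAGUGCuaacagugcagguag
miR-20b-5p of Mir20b: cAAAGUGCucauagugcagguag
miR-93-5p of Mir93: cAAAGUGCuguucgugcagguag
Compared with miR-17-5p, miR-106a-5p has the single substitution U10A, miR-20b-5p has U10C and C12U, and miR-93-5p has 4 substitutions, U10G, A11U, C12U and A13C. A read with an error at such a base could be placed on the wrong paralogue, and the sources used here do not give the mismatches that were allowed in alignment.

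Grouped by seed, the share that miR-17-92 gave of the gene counts ran from 62.4% to nearly all. Reads of either arm of a hairpin enter these counts, and multi-mapped reads do not. Of the genes with AAAGUGC, 6 of 7 had a count, and they summed to 7551 CPM for pup 2 and 6650 CPM for pup 1. Mir17 and Mir20a gave 62.4% of this in each pup (61.8 to 63.0 in pup 2 and 61.3 to 63.5 in pup 1). Mir93, at 1449 ± 27.5 CPM, and Mir106b, at 1154 ± 201 CPM, gave nearly all of the rest, while Mir106a had 40.3 ± 3.31 CPM and Mir20b had 25.2 ± 8.14 CPM (SD, n = 2 each). Mir106a, whose 5′ arm differs from that of Mir17 by the single substitution above, thus had a level far below that of Mir17.

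The other seeds differed more in who carried them. Of the 2 genes with AAGGUGC, Mir18 gave 99.5% in pup 2 (99.1 to 99.7) and 99.6% in pup 1 (98.7 to 99.9), and Mir18b had 13 counts in pup 2 and 3 in pup 1. All 7 genes with AUUGCAC had a count, and Mir92-1 gave 63.8% in pup 2 (62.5 to 65.1) and 66.2% in pup 1 (64.0 to 68.4). Mir25 followed with 275 ± 10.9 CPM, and Mir92b, Mir92-2, Mir363 and Mir32 lay between 61.4 and 74.0 CPM by mean. Mir92-1 and Mir92-2, which share miR-92a-3p, thus had 1014 CPM and 70.9 CPM of counts placed on a single locus. Multi-mapped reads of miR-92a-3p are left out and the arms are not separated. The shares of Mir92-1 are therefore shares of gene counts and not of miRNAs with this seed. The 3 genes with GUGCAAA summed to only 17.1 CPM for pup 2 and 17.7 CPM for pup 1, as Mir19b-2 had 4 counts in pup 2 and 0 in pup 1. The part of reads placed at several loci, or of alignment settings, in these low counts or in the shares of Mir92-1 was not tested.

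**Figure D4:**
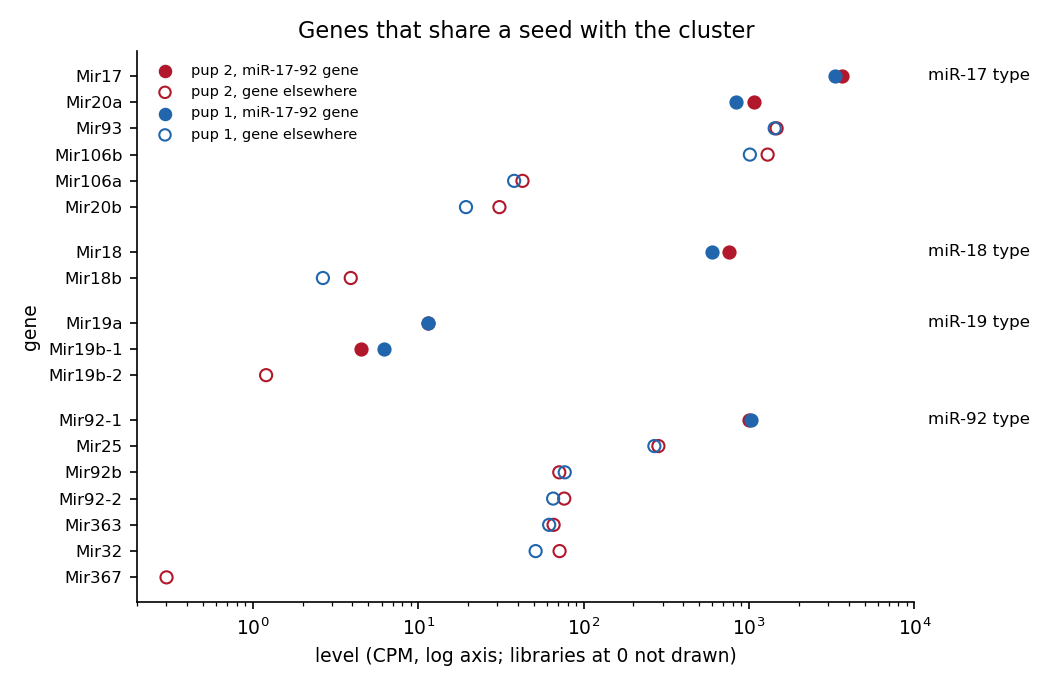
Levels in pup 2 (red) and pup 1 (blue) of every gene with a count whose mature miRNA carries 1 of the 4 seeds of the cluster, as CPM on a log axis, with filled points for the miR-17-92 genes and open points for genes elsewhere. Libraries at 0 counts are not drawn. The 3 genes of the miR-19 type lie at or below 11.5 CPM, while each other type has a gene above 600 CPM in both pups.

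A wide spread of levels was also seen within other groups of neighbouring miRNA genes. There were 8 groups on 1 strand with gaps of at most 10 kb and at least 4 genes that averaged 10 CPM or more. With its 5 genes above that level, miR-17-92 had a log2 range of 8.25, which ranked 4 of 8, and the median of the other 7 was 4.59. By the SD of the log2 levels, 3.15, it ranked 2 of 8, and the median of the others was 1.83. Wider ranges were found in the group from Mir450b to Mir322 on chromosome X, 10.4, and in the groups from Mir379 to Mir3072, 9.86, and from Mir770 to Mir432, 9.21, both in the imprinted region of chromosome 12. The smallest, 1.49, was that of the paralogous group from Mir363 to Mir106a, in which 4 of 6 genes passed the filter. Its genes that did not pass, Mir18b and Mir19b-2, averaged 3.28 CPM and 0.601 CPM. The lowest gene that passed, Mir20b, had 25.2 CPM, so this small range rests on the filter. The filter at 10 CPM leaves out the lowest genes and so can only narrow these ranges, most of all where the highest level is low. With all 6 members, the log2 range of miR-17-92 was 9.35. Groups with more genes can also have wider ranges, so the ranges are given as a description.

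**Figure D5:**
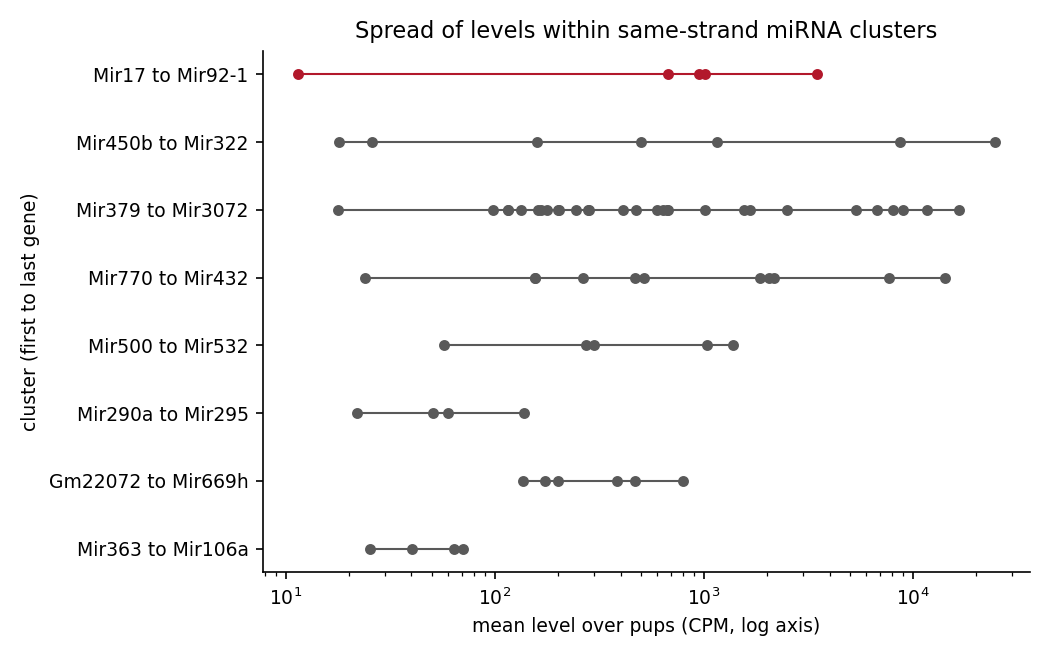
Mean levels of the genes with at least 10 CPM in each of the 8 same-strand groups of miRNA genes, as CPM on a log axis, with miR-17-92 in red at the top and a line from the lowest to the highest gene. In miR-17-92, 4 genes lie from 676 to 3480 CPM and Mir19a lies apart at 11.5 CPM.

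The genes outside the cluster with levels nearest to those of Mir17 in both pups, by Euclidean distance on log2(CPM + 1) over the 2 libraries, were Mir423 at a distance of 0.18, Mir122 at 0.23 and Mir34c at 0.25. Mir423 had 4109 CPM in pup 2 and 3343 CPM in pup 1. With 2 libraries, this likeness is one of level and not of a pattern across conditions.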

How the data were processed

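The deposited tables, 1 per library, hold unscaled counts of reads for each miRNA gene, as the authors made them. Per the deposited notes, the assembly was mm10 and the annotation GENCODE M4; the sources used here do not give the aligner or the trimming. Each table has 3 count columns (unstranded, same strand, opposite strand), and 4 rows that name no gene were left out of library sizes. CPM is the same-strand count over the same-strand sum of all gene rows, which was 52.7% of all reads in pup 2 and 50.4% in pup 1. Symbols and coordinates came from GENCODE M21, on the same assembly, which matched 1894 of 1973 rows; the other 79 held 0 counts. Sequences came from RefSeq, GRCm38.p6. No genome sequence was used, so exact copies were searched for in annotated hairpins and transcripts only, and shared runs overlap the mature arm by at least 15 bases.

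Log2 ratios used a prior of 1 CPM. Intervals are exact 95% intervals. With 1 group of 2 libraries, no test between groups was possible. Named genes were the 6 members, 9 paralogues, genes sharing a seed, the 3 nearest genes and markers of other cells; groups of neighbouring genes are named by their ends, and seed genes outside the paralogue clusters (Mir32, Mir92b) were added after values were seen. The members and lists were chosen with earlier results of these data known. The code for ratios and intervals was run on simulated independent Poisson counts, which do not cover the effect of PCR copies. Alternatives were TMM (edgeR 4.0.16), DESeq2 1.42.0 size factors, the unstranded column, all reads as denominator, a prior of 5 CPM, no level filter and leaving out each pup. Python 3.11.15, scipy 1.17.1 and RNAfold 2.7.2 were used.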

Additional observations from a re-analysis of the deposited data

How the results depend on the processing

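The log2 range within the cluster, 9.36 as a mean over pups, ran from 9.07 to 9.66 with either pup left out, and was 8.25 without Mir19b-1 and Mir92-1. The cluster sum ran from 5795 to 6483 CPM with either pup left out, and was 3169 CPM when all reads were the denominator and 5120 CPM without Mir19b-1 and Mir92-1, both by construction. The log2 ratio of the cluster sum was 0.16, and 0.27 with TMM and 0.23 with all reads as denominator. With all reads as denominator, as with TMM, 5 members were positive and Mir19b-1 was negative. No member reached 2-fold under any scaling or prior tried. Without the level filter, 85 genes in place of 15 were 2-fold apart, since genes with few counts then enter. No paired analysis was possible because both libraries belong to 1 group. Depth limits Mir19a and Mir19b-1 most, with 13 and 7 counts in pup 1.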
